A study of Homo sapiens with 12 samples.

Results

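Insulin-like growth factors act through cell surface receptors, and most of what circulates or is secreted is held by IGF binding proteins. This account follows 10 genes of that system in AsPC-1 cells, a human pancreatic ductal adenocarcinoma line, after BACH1 was lowered or edited. The genes are 6 binding proteins (IGFBP1, IGFBP2, IGFBP3, IGFBP4, IGFBP6 and IGFBP7), 3 receptors (IGF1R, IGF2R and INSR) and the adaptor IRS1. They were found by symbol among the 57820 gene identifiers of both count tables, and each symbol matched 1 row. The list was chosen with the levels of these libraries and both BACH1 comparisons already known, so the values of the 10 genes in those comparisons are given as a description and are no evidence on their own that the system responds to BACH1.

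There were 12 libraries in 4 groups of 3. The siBACH1 cells received a small interfering RNA against BACH1 and the siCont cells, by their name, a control siRNA, and RNA was taken 24 h after transfection. The sgBACH1 cells carried lentiCRISPR v2 with a guide against BACH1 and the sgCont cells, by their name, a control guide, and infected cells were selected with 10 µg/ml puromycin. All cells grew in RPMI medium with 20% fetal bovine serum, so every group met serum growth factors. RNA depleted of ribosomal RNA was sequenced on Ion Proton, and each library held 13099706 to 21478886 counts on genes. The labels do not say whether replicates were separate cultures, and errors and tests below rest on the scatter among libraries, part or all of which may be technical. Nor do they say whether the sgBACH1 cells are a pool or 1 clone, and neither the siRNA sequence nor the control guide was given in the sources used here.

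IGF1R and INSR are receptor tyrosine kinases that pass the signal to adaptors such as IRS1 and from there to PI3-kinase, AKT, mTOR and the FOXO factors. IGF2R, the mannose 6-phosphate receptor, takes IGF2 into the cell for breakdown and has no kinase. Binding proteins hold IGF away from IGF1R or carry it, and proteases such as PAPPA and HTRA1 cleave them. BACH1 is a transcription factor that, with small MAF proteins, represses genes such as HMOX1, and it is known for promoting metastasis in several carcinomas. The series asked which genes depend on BACH1 in pancreatic cancer cells.

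The sequences that define the perturbation and the regulatory stretches of the genes that moved are shown first. The BACH1 guide, on chromosome 21, is given with its PAM in capitals.
BACH1 guide: ccactcaagaatcgtaggccAGG
The promoters of IGFBP4 and INSR, which changed the same way in both experiments, and of IRS1 and IGF2R, which carry searched motifs, follow 5′ to 3′ from 250 bases before to 50 bases after the start, from RefSeq on GRCh38.p14. Their positions are chr17:40443200-40443499 (plus strand) for IGFBP4, chr19:7294365-7294664 (minus) for INSR, chr2:226799771-226800070 (minus) for IRS1 and chr6:159968832-159969131 (plus) for IGF2R. Capitals mark the motifs found.
IGFBP4 promoter: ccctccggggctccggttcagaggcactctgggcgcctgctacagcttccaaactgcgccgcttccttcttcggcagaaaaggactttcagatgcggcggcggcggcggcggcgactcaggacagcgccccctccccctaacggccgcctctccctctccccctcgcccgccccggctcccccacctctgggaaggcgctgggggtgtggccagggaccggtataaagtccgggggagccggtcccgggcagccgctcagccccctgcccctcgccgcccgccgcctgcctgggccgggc
INSR promoter: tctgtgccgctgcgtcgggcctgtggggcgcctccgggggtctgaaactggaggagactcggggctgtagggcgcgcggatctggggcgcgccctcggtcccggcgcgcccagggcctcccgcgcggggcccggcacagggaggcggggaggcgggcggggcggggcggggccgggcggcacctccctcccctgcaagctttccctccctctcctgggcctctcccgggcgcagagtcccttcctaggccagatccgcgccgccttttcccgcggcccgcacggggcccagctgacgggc
IRS1 promoter: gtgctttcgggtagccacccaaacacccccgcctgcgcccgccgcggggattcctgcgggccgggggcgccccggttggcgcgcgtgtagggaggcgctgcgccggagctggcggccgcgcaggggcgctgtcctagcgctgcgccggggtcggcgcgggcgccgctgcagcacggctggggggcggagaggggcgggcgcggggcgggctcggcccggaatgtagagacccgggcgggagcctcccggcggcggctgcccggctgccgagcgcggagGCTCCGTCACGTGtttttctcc
IGF2R promoter: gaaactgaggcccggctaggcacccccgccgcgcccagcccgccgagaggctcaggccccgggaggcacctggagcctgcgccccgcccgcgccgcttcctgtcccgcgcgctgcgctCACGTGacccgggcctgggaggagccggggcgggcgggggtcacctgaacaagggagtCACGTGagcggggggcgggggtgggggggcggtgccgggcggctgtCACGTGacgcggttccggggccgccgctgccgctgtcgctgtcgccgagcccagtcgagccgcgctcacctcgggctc
A promoter was in the table for 8 of the 10 genes, 10 promoters in all because IGFBP2 has 3 starts. IGFBP1 and IGFBP7 have no promoter here. Both strands were searched for TGACNNNGC, the core bound by NRF2 or BACH1 with small MAF proteins, for the AP-1 type site TGANTCA and for the E-box CACGTG. TGACNNNGC stood in 13.3% of all 35116 promoters of this length, TGANTCA in 7.71% and CACGTG in 7.26%. IRS1 held 1 TGACNNNGC, on the opposite strand, overlapping 1 CACGTG, and IGF2R held 3 CACGTG. The other promoters held none of these letters. A match is no evidence of binding.

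BACH1 itself checks the labels. It had 24.7, 27.5 and 24.6 CPM (counts scaled to library size) in siBACH1, against 196, 289 and 195 CPM in siCont. It had 220, 199 and 186 CPM in sgBACH1, against 270, 295 and 279 CPM in sgCont. In both experiments the BACH1-targeted libraries lay below all controls, by a log2 fold change of -3.15 ± 0.17 (SE, n = 3 each) after siRNA and -0.48 ± 0.08 in the knockout, both called by edgeR. The guide edits DNA, the counts run over the whole transcript, and BACH1 protein was not measured here. CPM are scaled with TMM over all 12 libraries. A gene is called when edgeR's quasi-likelihood test gives an adjusted p below 0.05, adjusted over every gene tested.

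AsPC-1 is an epithelial line, and 8 of 8 ductal markers were detected, with a summed level of 11350 to 20706 CPM across libraries. KRT8 alone had group means of 6019 to 10993 CPM. KRT7 had 2.38 to 14.9 CPM and was lower after siRNA (log2 -1.48 ± 0.32) and in the knockout (-1.81 ± 0.29). Of the 8 markers 3 were called higher and 2 lower after siRNA, beside 10.9% and 13% of all genes. In the knockout 4 were higher and 4 lower, beside 11.3% and 12.3%. Of 5 fibroblast markers 4 stayed under 1 CPM in every library, and the fifth, LUM, fell in the knockout to 45.2 to 51.3 CPM in sgBACH1, against 114 to 137 CPM in sgCont (log2 -1.34 ± 0.10). After siRNA LUM was higher (0.23 ± 0.07), at 336 to 355 CPM in siBACH1, against 291 to 302 CPM in siCont, and that call was lost without any 1 library except siCont replicate 2. All 3 endothelial and all 4 liver markers measured were under 1 CPM in every library, as were 2 of 4 blood markers. SiCont replicate 2 stood apart. Its counts differed from siCont replicates 1 and 3 by a chi-square per degree of freedom of 28.6 and 33.8, against 8.52 between those replicates and 6.69 to 13.7 within the other groups. The siRNA fold changes that turn on it are given without it as well.

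In short, IGFBP4 and IGFBP1 were lower and INSR was higher with BACH1 lowered or edited in both experiments, IGFBP3 fell 3.23-fold in the knockout and was not called after siRNA, and IGF1R and IGFBP6 moved in opposite directions between the experiments. IGFBP2 was expressed in the siRNA cells and almost absent from both groups of the knockout cells, and IGFBP7 was at most 0.0970 CPM in any library. In bulk RNA, fewer cells with a transcript and less of it per cell cannot be told apart. After siRNA 2 of the 10 genes were called higher, 3 lower and 4 not called, and 1 did not pass the filter on low counts. In the knockout 3 were called higher, 5 lower and 2 did not pass the filter. Over all genes tested 10.9% were called higher and 13% lower after siRNA, and 11.3% higher and 12.3% lower in the knockout. Since the genes were selected on these contrasts, nothing is read from their counts against these shares.

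**Figure D1:**
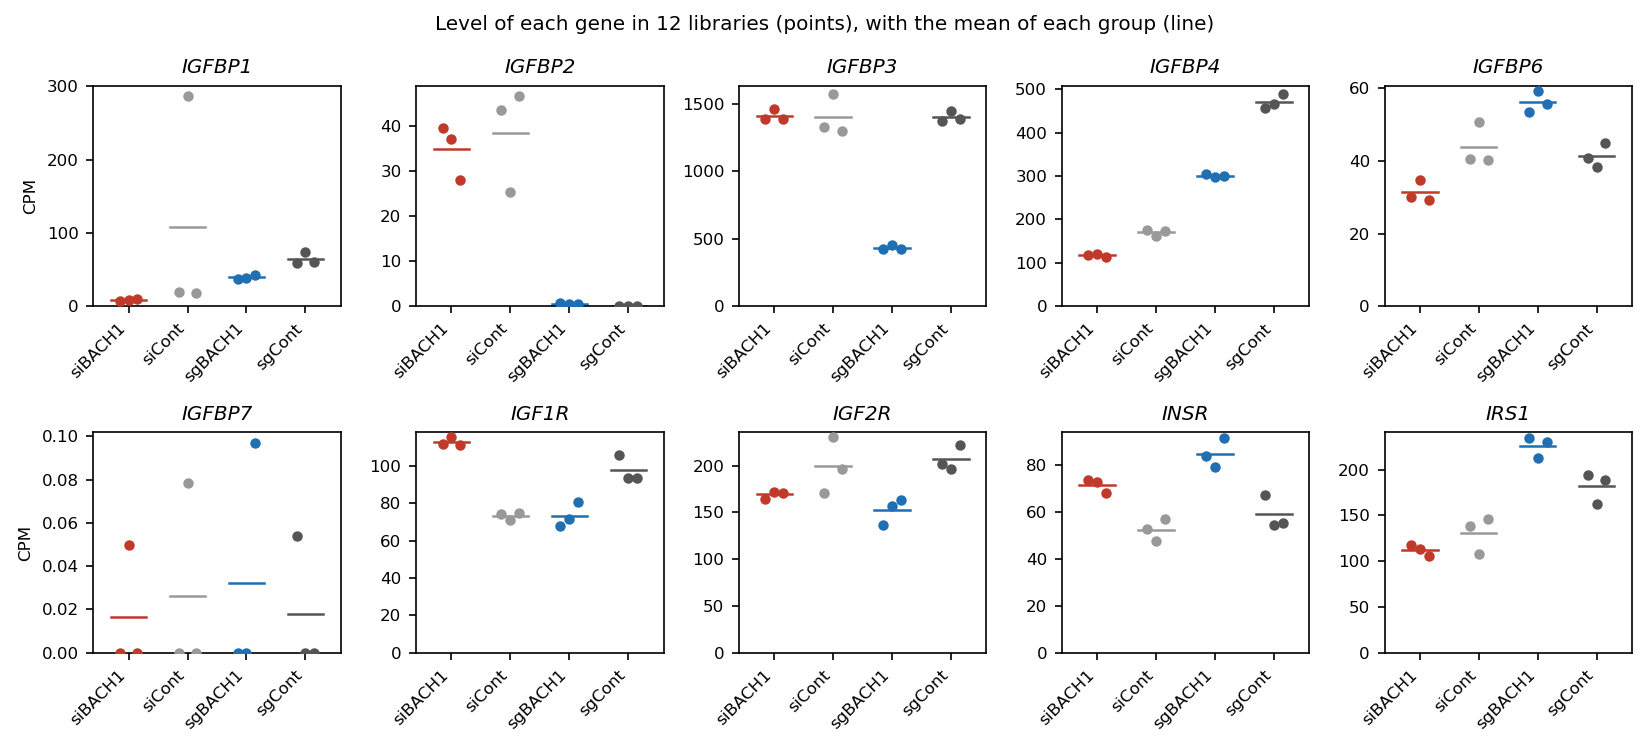
Level of each of the 10 genes in CPM (y axis, linear, from 0) in the 3 libraries of siBACH1, siCont, sgBACH1 and sgCont (x axis), with points for libraries and a line for the group mean. IGFBP3 is low only in the sgBACH1 libraries (421 to 450 CPM), IGFBP2 is near 0 in both knockout groups, and 1 siCont library carries IGFBP1 at 286 CPM.

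Per kilobase of exon, IGFBP3 was the most abundant of the 10 mRNAs in every group except sgBACH1, where IGFBP4 (137 ± 1.52 CPM per kb) stood above it (94.7 ± 3.38 CPM per kb). IGFBP3 was at 306 ± 33.1 CPM per kb in siCont (SD, n = 3) and 306 ± 8.63 CPM per kb in sgCont. IGFBP4 came second in sgCont with 214 ± 7.42 CPM per kb and had 77.6 ± 3.33 CPM per kb in siCont. In sgCont they were followed by IGFBP1 (38.8 ± 4.86), IGFBP6 (30.7 ± 2.46), IRS1 (18.3 ± 1.68), IGF2R (11.6 ± 0.775), IGF1R (7.01 ± 0.512) and INSR (5.65 ± 0.683 CPM per kb), with IGFBP7 near 0 and IGFBP2 at 0. In siCont IGFBP1 was at 65.5 ± 93.3 CPM per kb, an SD set by 1 library, and the neighbours IRS1 (13.2 ± 2.05) and IGF2R (11.2 ± 1.68), and IGF1R (5.27 ± 0.132) and INSR (5.02 ± 0.440 CPM per kb), lay within their SDs of each other.

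IGFBP3 binds most circulating IGF and can also act without it. It lies on the minus strand at chr7:45912245-45921874 (GRCh38, GENCODE 29). In sgBACH1 it had 427, 450 and 421 CPM, against 1371, 1445 and 1385 CPM in sgCont. The knockout libraries were all below the controls with a wide space between them, a log2 fold change of -1.69 ± 0.07 (SE, n = 3 each). In siBACH1 it had 1388, 1464 and 1386 CPM, against 1326, 1575 and 1302 CPM in siCont. These groups overlapped, with a log2 fold change of 0.01 ± 0.09 that was not called. The knockout response minus the siRNA response was -1.71 ± 0.10 on the log2 scale. Both control groups stood at the same level, 1401 ± 151 CPM in siCont and 1400 ± 39.5 CPM in sgCont.

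IGFBP4, at chr17:40443461-40457731 on the plus strand, is a binding protein that restrains IGF until PAPPA cleaves it. It had 119, 119 and 113 CPM in siBACH1, against 176, 162 and 174 CPM in siCont. It had 305, 299 and 299 CPM in sgBACH1, against 457, 465 and 488 CPM in sgCont. Neither pair of groups overlapped, and the gene was 1.46-fold lower after siRNA (log2 -0.55 ± 0.07) and 1.56-fold lower in the knockout (-0.64 ± 0.07). The difference between the responses was -0.10 ± 0.09 and was not called. The space between the control groups was larger than either response: siCont stood 2.75-fold below sgCont, and even sgBACH1 lay above every siRNA library.

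IGFBP1, at chr7:45888357-45893668 on the plus strand beside IGFBP3, is a short-lived binding protein that insulin lowers and that starvation, hypoxia and the stress factor ATF4 raise. It had 7.62, 9.08 and 10.3 CPM in siBACH1, against 19.9, 286 and 18.4 CPM in siCont. All siBACH1 libraries lay below all siCont libraries, but the size of the change hangs on siCont replicate 2, which was 15.0-fold above the mean of the other siCont libraries. The log2 fold change was -3.58 ± 0.99 (SE, n = 3 each) with that library and -1.08 without it, and both were called. The call was lost when any siBACH1 library was left out (-3.48 to -3.70), with siCont replicate 2 kept. In sgBACH1 it had 36.7, 38.7 and 42.5 CPM, against 58.8, 73.3 and 60.2 CPM in sgCont. These groups did not overlap, and the gene was 1.63-fold lower in the knockout (log2 -0.70 ± 0.12). The knockout response minus the siRNA response was 2.87 ± 0.97, and 0.38, not called, without siCont replicate 2. That call was also lost without any 1 of the siBACH1, sgBACH1 or sgCont libraries (2.77 to 2.97).

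In the same siCont library the ATF4 stress list, 10 genes, summed to 2621 CPM, against 501 and 500 CPM in siCont replicates 1 and 3. All 9 of its genes above 1 CPM were over 2-fold up there, by 2.23 to 10.5-fold. ASNS (asparagine synthetase) was at 9.35-fold, TRIB3 (an AKT-binding pseudokinase) at 10.5-fold and the factor DDIT3 at 5.61-fold. The share of all genes over 2-fold up in that library was not counted, so nothing is read from the 9. GRB10, an adaptor that restrains INSR and IGF1R, was 2.36-fold up there. Against siCont replicates 1 and 3 alone, IGFBP1 was at 9.01 ± 1.36 CPM in siBACH1 (SD, n = 3) and at a mean of 19.1 CPM in those libraries. The stress list summed to 465 to 484 CPM in siBACH1. After siRNA 2 of its 9 tested genes were called lower, beside 13% of all genes. They were PSAT1, a serine synthesis enzyme (log2 -2.49 ± 0.56), and DDIT4, an inhibitor of mTORC1 (-1.99 ± 0.51). Without siCont replicate 2 these were -1.32 and -0.92, still called, and without siBACH1 replicate 1 or 3 neither was called. In the knockout the list summed to 339 to 366 CPM in sgBACH1 and 283 to 312 CPM in sgCont. There ATF3, ASNS and TRIB3 were called higher of 9 tested, beside 11.3% of all genes, while IGFBP1 was lower. The call of TRIB3 was lost without sgBACH1 replicate 1 or 2, and that of ATF3 without any 1 library except sgBACH1 replicate 3.

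**Figure D2:**
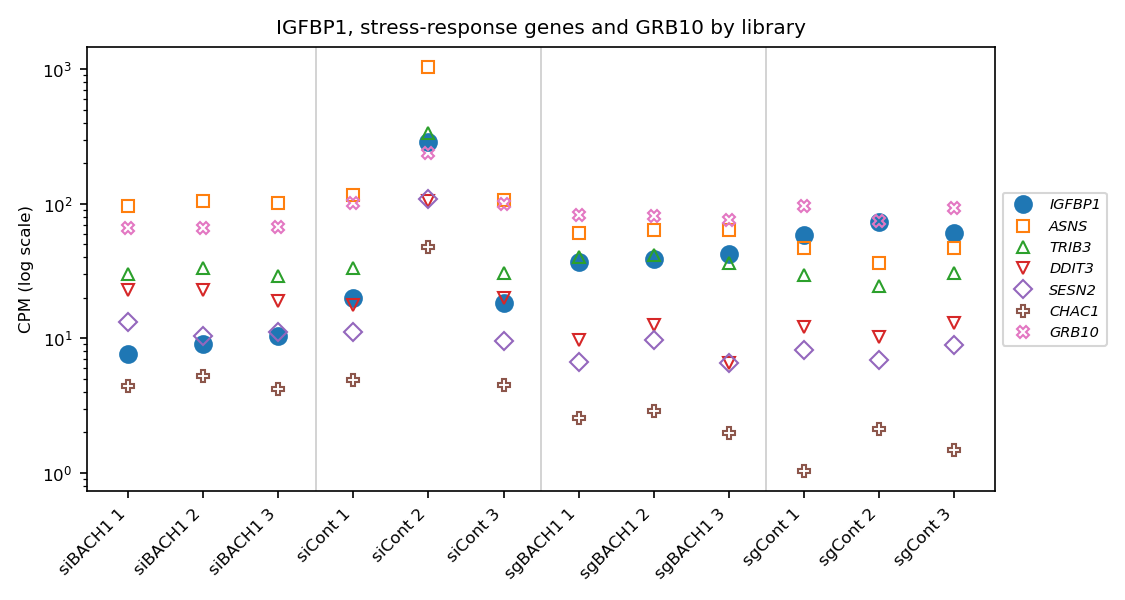
IGFBP1, 5 genes of the ATF4 stress list and GRB10 in CPM (y axis, log scale) in each of the 12 libraries (x axis). SiCont replicate 2 holds the highest value of IGFBP1 (286 CPM) and of ASNS (1034 CPM), while IGFBP1 is lowest in the siBACH1 libraries (7.62 to 10.3 CPM).

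A list of 9 genes induced by low oxygen was also read, since IGFBP1 and IGFBP3 are induced under hypoxia. It summed to 431 to 453 CPM in siBACH1 and 624, 921 and 505 CPM in siCont replicates 1, 2 and 3, with 4 of 8 tested genes called lower, against 13% of all genes, and 2 of 8 without siBACH1 replicate 3. In the knockout it summed to 701 to 748 CPM in sgBACH1 and 361 to 409 CPM in sgCont, with 4 of 8 called higher, against 11.3% of all genes, and CA9, a carbonic anhydrase, lower. The rise of the sum rested on SLC2A1, the glucose transporter, which rose 2.99-fold (log2 1.58 ± 0.08). Without SLC2A1 the list summed to 188 to 197 CPM in sgBACH1 and 205 to 211 CPM in sgCont. That remainder holds the fall of CA9, at a mean of 36.4 CPM in sgBACH1 and 86.8 CPM in sgCont. The other genes called higher were VEGFA (mean 44.6 against 28.6 CPM), NDRG1 (74.2 against 53.7 CPM) and EGLN3 (8.33 against 4.38 CPM). ADM, ANKRD37 and PDK1 were not called in the knockout. After siRNA the genes called lower were CA9 (log2 -2.07 ± 0.22), EGLN3 (-0.97 ± 0.21), PDK1 (-0.71 ± 0.18) and SLC2A1 (-0.70 ± 0.16). The call of SLC2A1 was lost without siBACH1 replicate 2 or 3. CA9 was thus lower in both experiments, while EGLN3 and SLC2A1 moved in opposite directions. Without SLC2A1 the list summed to 212 to 217 CPM in siBACH1 and 275, 461 and 226 CPM in siCont replicates 1, 2 and 3. The part of either list in the changes of the binding proteins was not tested.

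IGFBP6 prefers IGF2 over IGF1. It had 30.1, 34.7 and 29.2 CPM in siBACH1, against 40.5, 50.8 and 40.1 CPM in siCont. It had 53.5, 59.1 and 55.8 CPM in sgBACH1, against 40.7, 38.3 and 44.9 CPM in sgCont. Neither pair overlapped, and the directions were opposite, with log2 fold changes of -0.49 ± 0.13 after siRNA and 0.44 ± 0.11 in the knockout and a difference of 0.92 ± 0.17. The siRNA call was lost without siBACH1 replicate 1 (-0.46) or replicate 3 (-0.44). IGFBP6 lies at chr12:53097436-53102345 on the plus strand. Of the 100 tested genes nearest in order along the chromosome, 50 on each side, 3 were called higher and 30 lower in the knockout and 67 not called, with a median log2 fold change of -0.21, against 12.3% of all genes called lower. For the other genes that median lay between -0.05 and 0.06 in the knockout.

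IGFBP2, at chr2:216632828-216664436 on the plus strand, is a binding protein often raised in tumours. It had 39.6, 37.2 and 28.1 CPM in siBACH1, against 43.6, 25.4 and 46.6 CPM in siCont. These groups overlapped, and the log2 fold change of -0.15 ± 0.21 was not called, but without siCont replicate 2 it was -0.38 and called. In sgBACH1 it had 0.670, 0.501 and 0.534 CPM, from 11, 8 and 11 counts, against 0 counts in all 3 sgCont libraries. With sgCont set at a floor of 3 counts over the group, pooled CPM was 9.33-fold higher in sgBACH1 and 651-fold higher in siCont. These ratios leave out the scatter among libraries and are no strict lower limits. The gene did not pass the filter in the knockout.

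IGFBP7, a matrix-bound protein with weak affinity for IGF, had 0 to 2 counts in each library and passed no filter. Its exons overlap IGFBP7-AS1 and POLR2B on the other strand, and the labels and files name no strand setting for the counting. IGFBP7 lies at chr4:57030773-57110385 on the minus strand. None of the other 9 genes shares exons with another annotated gene.

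IGF1R, the main receptor for IGF1 and IGF2, had 112, 116 and 112 CPM in siBACH1, against 74.5, 71.4 and 74.7 CPM in siCont. It had 68.2, 71.7 and 80.7 CPM in sgBACH1, against 106, 93.6 and 93.7 CPM in sgCont. Both pairs of groups were apart and in opposite directions: IGF1R was 1.53-fold higher after siRNA (log2 0.61 ± 0.07) and 1.33-fold lower in the knockout (-0.41 ± 0.10), a difference of -1.03 ± 0.12. IGF1R lies at chr15:98648539-98964530 on the plus strand. Its control groups did not overlap, siCont being 1.33-fold below sgCont, and siBACH1 (113 ± 2.33 CPM, SD, n = 3) came closer to sgCont (97.8 ± 7.13 CPM) than to siCont (73.5 ± 1.84 CPM).

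INSR, the insulin receptor, had 73.6, 72.9 and 68.0 CPM in siBACH1, against 52.8, 47.7 and 56.9 CPM in siCont. It had 83.8, 79.2 and 91.8 CPM in sgBACH1, against 67.3, 54.5 and 55.4 CPM in sgCont. Every library with BACH1 lowered or edited was above every control of its experiment, by 1.36-fold after siRNA (log2 0.44 ± 0.09) and 1.44-fold in the knockout (0.52 ± 0.11). The difference between the responses, 0.08 ± 0.15, was not called. INSR lies at chr19:7112255-7294034 on the minus strand.

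IGF2R had 164, 172 and 171 CPM in siBACH1, against 171, 231 and 197 CPM in siCont. These groups overlapped by 1 library, and the log2 fold change of -0.24 ± 0.11 was not called, though without siCont replicate 1 it was -0.35 and called. IGF2R had 137, 157 and 163 CPM in sgBACH1, against 202, 196 and 222 CPM in sgCont, which did not overlap, for a log2 fold change of -0.44 ± 0.08. The difference between the responses was -0.20 ± 0.14, not called, and -0.32, called, without siCont replicate 2. IGF2R lies at chr6:159969099-160113507 on the plus strand.

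IRS1, which links both receptor kinases to PI3-kinase, had 118, 114 and 106 CPM in siBACH1, against 139, 108 and 146 CPM in siCont. The groups overlapped, and the log2 fold change of -0.22 ± 0.11 was not called, but without siCont replicate 2, the lowest siCont library, it was -0.35 and called. IRS1 had 234, 212 and 230 CPM in sgBACH1, against 194, 163 and 189 CPM in sgCont. Here every sgBACH1 library was above every sgCont library, 1.24-fold (log2 0.31 ± 0.08). The difference between the responses was 0.53 ± 0.15, and 0.48, not called, without siBACH1 replicate 3. IRS1 lies at chr2:226731317-226799759 on the minus strand.

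**Figure D3:**
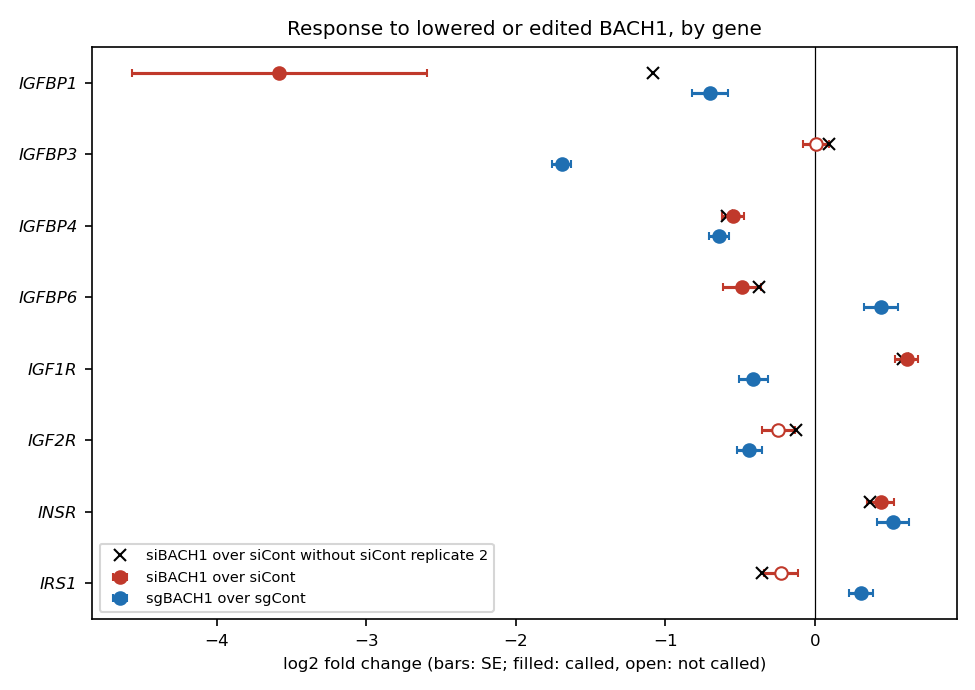
Log2 fold change with its SE (x axis) of the 8 genes tested in both experiments (y axis), siBACH1 over siCont in red and sgBACH1 over sgCont in blue, filled where called, with crosses for the siRNA value without siCont replicate 2. IGFBP1 moves to -1.08 without that library, IGFBP3 is far below 0 in the knockout only, and IGF1R and IGFBP6 lie on opposite sides of 0 in siRNA and knockout.

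The test of the difference between both experiments called 6 of the 10 genes, did not call 3 and left 1 untested. IGFBP2 is among the 6, though it passed the filter through its siRNA libraries and its fit rests on sgCont at 0 counts. The test called 23.6% of all genes tested. It is built from the contrasts the genes were selected on, so nothing is read from the count of 6 either. The control groups, siCont against sgCont, were compared as well. In 4 of 10 genes the groups did not overlap, or 4 of the 9 that passed the filter, against 45.3% of all genes tested. The genes were selected with these levels known, and IGFBP2 passed the filter only through the siRNA experiment. Nothing is read from this count. IGFBP2 was higher in siCont, and IGFBP4, IGF1R and IRS1 were lower there, by 1.33 to 2.75-fold. For the other 6 genes the control groups overlapped. IGFBP1 overlapped through siCont replicate 2, and without it siCont was lower by a log2 difference of -1.73. Delivery of siRNA or virus, selection and the separate experiments cannot be told apart in this gap.

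Among genes that fell in siBACH1, the letters AACATTA or ACATTAA in a 3′ UTR had been found more often in an earlier look at these data, so the 10 genes were searched for them. They stood in the annotated 3′ UTR of 57.6% of genes called lower after siRNA, 15.7% of those called higher and 23.7% of those not called. Only INSR and IGF2R of the 10 genes carry them, and neither was called lower after siRNA. IGFBP1, IGFBP4 and IGFBP6, which were, carry none. The part of these letters in the siRNA changes was not tested. The sites, from GENCODE 29 transcripts on GRCh38 with the letters in capitals, are at chr19:7116126-7116154 (minus strand) and chr6:160110779-160110807 (plus strand).
INSR 3′ UTR site: accaagctaggACATTAAaaaaaaaaaaa
IGF2R 3′ UTR site: tgagctgagagAACATTAtgctaagtgaa
Long UTRs often hold these letters: they stood in 53.0% of genes with a 3′ UTR about as long as that of INSR and in 64.3% of those about as long as that of IGF2R.

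The rest of the pathway was read from 46 genes listed by role. IGF1, IGF2, INS, IGFBP5, IGFBPL1 and IGFALS did not pass the filter, so no ligand transcript was measurable above it. PAPPA, at most 0.283 CPM in any library, PAPPA2 and STC2 did not pass it either. After siRNA 32 were tested, 7 were called higher and 13 lower, beside 10.9% and 13% of all genes, with a median log2 fold change of -0.02 against 0.00 over all genes. Leaving out 1 library gave 2 higher without siBACH1 replicate 2 and 11 without siCont replicate 2, and 4 without siBACH1 replicate 1 or 3 or siCont replicate 1, while the lower count fell to 8 without siBACH1 replicate 1. In the knockout 31 were tested, 3 were called higher and 10 lower, beside 11.3% and 12.3% of all genes, with a median of -0.09 against 0.01 over all genes. The higher count was 0 without sgBACH1 replicate 1 or sgCont replicate 3, and 1 without sgBACH1 replicate 3 or sgCont replicate 2. Of the 13 genes lower after siRNA 10 carry the 3′ UTR letters above, and of the 7 higher genes 1 does. Over all genes 57.6% of those called lower and 15.7% of those called higher carry them. UTR length was not matched and the part of the letters was not tested, so nothing is read from these counts.

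After siRNA RICTOR, the mTORC2 subunit, fell 2.64-fold (log2 -1.40 ± 0.11, edgeR adjusted p = 3.10e-05). RICTOR had 49.7 ± 2.78 CPM in siBACH1 and 131 ± 16.3 CPM in siCont (SD, n = 3 each). In the knockout it was not called (log2 0.06 ± 0.09). RICTOR carries the 3′ UTR letters above, as does GRB10. HTRA1, the protease that cleaves binding proteins, fell 1.91-fold after siRNA (-0.93 ± 0.11) and carries none of the letters. GRB10 was at 66.0 to 67.4 CPM in siBACH1, against 102, 238 and 99.9 CPM in siCont, a log2 fold change of -1.14 ± 0.30 that was -0.61, still called, without siCont replicate 2 and not called without any 1 siBACH1 library. TSC1, an mTORC1 inhibitor, was higher (0.72 ± 0.09), as was RHEB, the activator of mTORC1 (0.76 ± 0.21), whose call was lost without any 1 library except siCont replicate 2. In the knockout HTRA1 (log2 0.01 ± 0.12), GRB10 (-0.13 ± 0.10), TSC1 (0.09 ± 0.10) and RHEB (-0.19 ± 0.10) were not called either.

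A set of 4 genes changed the same way in both experiments, and 3 moved in opposite directions. The share of all genes that did either was not computed, so nothing is read from these counts. SHC1, the adaptor to RAS, was lower, with log2 fold changes of -0.71 ± 0.08 after siRNA and -0.56 ± 0.07 in the knockout. PIK3CA, a catalytic subunit of PI3-kinase, was lower too (-0.70 ± 0.18 and -0.41 ± 0.13), as was FOXO1 (-0.60 ± 0.11 and -0.42 ± 0.11). PIK3R1, the regulatory subunit, was higher (0.63 ± 0.13 and 0.37 ± 0.12). Of these 8 calls, that of PIK3CA after siRNA was lost without siBACH1 replicate 1 (-0.62) or 2 (-0.64), and in the knockout without sgBACH1 replicate 2 (-0.39) or 3 (-0.35) or sgCont replicate 1 (-0.30). That of PIK3R1 in the knockout was lost without sgBACH1 replicate 1 (0.36) or 3 (0.32) or sgCont replicate 2 (0.28) or 3 (0.34), and the others were kept. A set of 3 moved in opposite directions, like IGF1R: IRS2, an adaptor, had log2 fold changes of 0.65 ± 0.14 after siRNA and -0.29 ± 0.10 in the knockout, and the mRNA-binding proteins IGF2BP2 (0.37 ± 0.09 and -0.57 ± 0.12) and IGF2BP3 (0.27 ± 0.08 and -0.40 ± 0.10) did so too. Each of these 3 genes lost a call when certain single libraries were left out: IRS2 after siRNA without siBACH1 replicate 2 (0.58) and in the knockout without any 1 library except sgCont replicate 1, IGF2BP2 after siRNA without siBACH1 replicate 1 (0.34) or 2 (0.34) or siCont replicate 1 (0.32), and IGF2BP3 after siRNA without any 1 library except siCont replicate 2 and in the knockout without sgBACH1 replicate 3 (-0.32) or sgCont replicate 1 (-0.27). In the knockout FOXO4 rose (1.16 ± 0.33, not called without sgBACH1 replicate 1 or sgCont replicate 3) and TSC2, the partner of TSC1, fell (-0.62 ± 0.09).

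**Figure D4:**
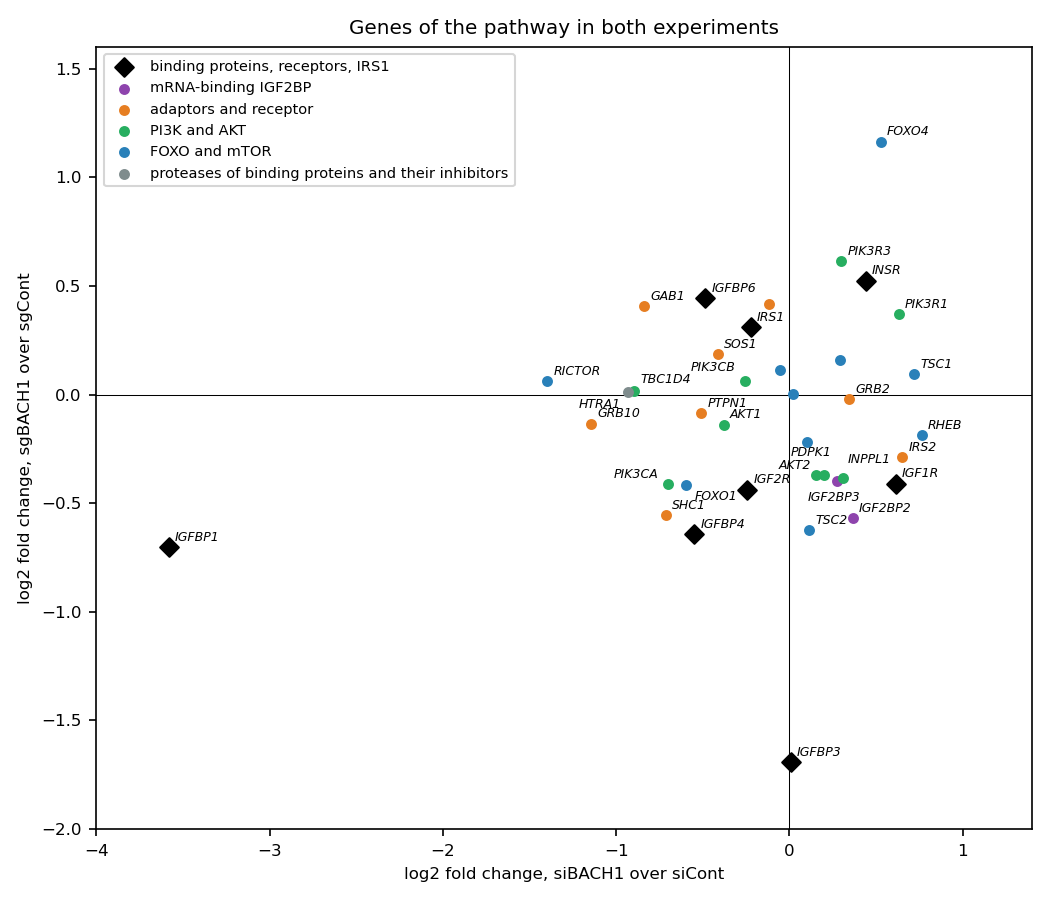
Log2 fold change of siBACH1 over siCont (x axis) against sgBACH1 over sgCont (y axis) for the genes tested in both, black diamonds for the binding proteins, receptors and IRS1 and coloured points for the other pathway genes by list, with names where called in either and 1 list gene not plotted. IGFBP4, SHC1, PIK3CA and FOXO1 lie below 0 on both axes, INSR and PIK3R1 above 0 on both, and IGF1R, IRS2, IGF2BP2 and IGF2BP3 lie at lower right.

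The genes most like 3 of the members over all 12 libraries, by Pearson's r of log2 CPM among 11931 genes, were listed as a description. For IGFBP1 they were SLC38A2 (0.98), SLC38A1 (0.97) and SLC20A1 (0.97), transporters of amino acids and phosphate. For IGFBP3 they were TNFAIP2 (0.98), SH2B3 (0.98) and CERS6 (0.98). For IGF1R they were KCNK5 (0.96), CYTH3 (0.96) and CBX6 (0.96). The 12 points share 4 groups and their depth, and siCont replicate 2 is 1 of them.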

How the data were processed

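Total RNA depleted of ribosomal RNA was sequenced on Ion Proton, per the labels' protocols. The deposited tables hold whole-number counts per gene. HTSeq 0.9.1, SAMtools and hg19 are named in the submitters' processing notes. Which aligner, counting mode and strand setting were used is not stated there, and reads shared between overlapping genes may be lost or assigned to either. Identifiers numbered 57820, of which 51996 matched a current symbol and 342 more were named by GENCODE 29. Coordinates are GRCh38 from that release, not the build of the counts.

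Genes were fitted with edgeR 4.0.16 in R 4.3.3 (TMM, filterByExpr with a minimum count of 10, quasi-likelihood test, Benjamini-Hochberg adjustment over all genes tested), each experiment alone and, for the difference of responses, with all 12 libraries. The fits were tested on simulated data, where the share of false calls was above the threshold in every comparison, least so in the knockout, and most of the smallest changes were missed. SE is the log2 fold change over the square root of its F. Alternatives were other scalings, no filter, DESeq2 1.42.0, a replicate block and each library left out. The members, lists and alternatives were chosen with earlier results of these data known. Named genes are the 10 members, BACH1, list genes called or standing beside a result, and the 3 genes most like IGFBP1, IGFBP3 and IGF1R. The values of 1 list gene are not reported here, though it is counted among the list's genes.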

Additional observations from a re-analysis of the deposited data

Results flagged for a closer look

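The values below were picked out because edgeR's fit of the difference between the knockout and siRNA responses called them. They cover 6 of the 10 genes and 3 other pathway genes with opposite calls. The genes were selected with both responses known, so these are descriptions and no independent test. On the log2 scale, knockout minus siRNA, the difference was -1.71 for IGFBP3, -1.03 for IGF1R, 0.92 for IGFBP6 and 0.53 for IRS1. For IGFBP1 it was 2.87, and 0.38 and not called without siCont replicate 2. For IGFBP2 it was 6.44, a fitted value that rests on sgCont at 0 counts, depends on the prior count and is no size. For IRS2 it was -0.94, for IGF2BP2 -0.94 and for IGF2BP3 -0.67. Groups of 3 were not searched for outlying libraries by a rule.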

How the results depend on the processing

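Of the counts of calls, the siRNA comparison depended on single libraries: 2002 to 5121 genes and 3 to 7 of the 10 genes were called when 1 library was left out, against 3481 and 5 with all. Leaving out a library gave 2500 to 3586 genes in the knockout (8 of the 10 genes each time) and 2960 to 3990 for the difference. Other scalings, no filter and DESeq2 kept every count of genes within 1.5 times. DESeq2 gave IGFBP1 no adjusted p after siRNA or for the difference. Without a filter IGFBP2 was called in the knockout, a fit against 0 counts. The IGFBP1 call after siRNA was lost without siBACH1 replicate 1 (-3.48), 2 (-3.59) or 3 (-3.70), and the IRS1 difference without siBACH1 replicate 3 (0.48). The 8 knockout calls were made under every alternative run, and no direction of a called gene reversed. The main fits did not pair samples by replicate number. Same-numbered libraries correlated at 0.0041 to 0.035 in the siRNA experiment and -0.0083 to 0.044 in the knockout. In these, 2 of 3 and 1 of 3 correlated best with their own number, and so few libraries cannot exclude pairing. The replicate block called 3196, 3530 and 3513 genes for siRNA, knockout and difference, gave IGFBP1 -2.41 after siRNA, and ended the IGFBP1 call of the difference (1.73). Low counts limit IGFBP2 in the knockout and IGFBP7 everywhere. For the lists, added after seeing the data, leaving out 1 library gave 2 to 11 pathway genes higher and 8 to 13 lower after siRNA and 0 to 3 higher and 7 to 9 lower in the knockout. It gave 0 to 1 stress genes higher and 0 to 6 lower after siRNA and 1 to 3 higher in the knockout, and 0 to 1 hypoxia genes higher and 2 to 4 lower after siRNA.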
